A study of Mus musculus with 8 samples.

Results

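Genes of the chaperone and protein folding system were followed in the extensor digitorum longus (EDL), a limb muscle made mostly of fast fibres, of mice that lack Sod1 and of wild-type mice. The members are all genes on the array whose symbol begins with a heat shock, J protein, CCT, BAG, αB-crystallin, disulfide isomerase, prefoldin, STIP1, AHSA, FKBP, cyclophilin, calreticulin or calnexin stem. There were 85 such genes among the 7053 genes with a name, each read from its brightest probe. By where their proteins are known to work, 56 were placed in the cytosol or nucleus, 16 in the endoplasmic reticulum (ER), 8 in mitochondria and 5 in none of these. The array held 4 Sod1 knockout (sod-/-) and 4 wild-type samples, all from muscle of mice aged 7 months. Sod1 is the superoxide dismutase of the cytosol, and the series asks how muscle transcription responds to a lasting oxidative load. The sources used here do not give strain, sex or the kind of Sod1 allele. No label says that the 4 samples of a genotype are 4 different mice, and the p-values below thus reflect sample-to-sample spread that may be technical. Levels of Sod1 itself were not analysed here, which leaves the genotype labels unchecked against the deleted gene. The labelled tissue was checked by 9 muscle genes listed for fast fibres, among them the muscle actin Acta1, the creatine kinase Ckm and the calcium buffer Pvalb. Acta1 and Ckm are not particular to fast fibres, so the list checks for muscle more than for fibre type. All 9 passed the filter on dim probes, and their summed linear intensity ran from 122856 to 133323 in the knockout and from 120405 to 125763 in the wild type.

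Chaperones hold unfolded proteins in solution and let them fold in cycles driven by ATP. In the cytosol, HSP70 works with J proteins that deliver substrates and with BAG and HSP110 proteins that release the nucleotide, HSP90 takes over late clients, and the ring-shaped CCT folds actin and tubulin. Small heat shock proteins such as αB-crystallin bind unfolding proteins without ATP and are abundant in muscle, where they guard the Z-disc and the cytoskeleton. The ER has its own HSP70 (Hspa5) and HSP90 (Hsp90b1) beside disulfide isomerases, and the mitochondrial matrix has Hspa9 and the chaperonin pair Hspd1 and Hspe1. HSF1 induces many cytosolic chaperones through heat shock elements, and the unfolded protein response induces ER chaperones through ER stress elements.

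Both elements were looked for in the promoters of the members after the array values were seen, because cytosolic and ER members often peaked in different arrays. The members were picked by chaperone names, and some chaperone genes are known to carry these elements. The shares below are thus no independent support for a link to the array values. Promoter sequences came from RefSeq on GRCm38.p6, with 250 bases before and 50 after each start site, and 70 of the 85 members had one. The heat shock element was searched as GAA, TTC and GAA with any 2 bases between neighbours, and the ER stress element as CCAAT and CCACG with any 9 bases between them. Both strands were searched and overlapping matches merged. A heat shock element of this spelling stood in 4 of 70 members (5.71%), namely Hspd1, Hspe1, Hsph1 and Dnajb6, and in 0.662% of all 27025 genes with a promoter. An ER stress element stood in 3 of 70 (4.29%), namely Hspa5, Hsp90b1 and Pdia6, and in 0.137% of all genes. A match describes the letters of the window and shows no binding. The windows are printed 5′ to 3′ along the strand of the gene, with the matched bases in capitals. Hspd1 and Hspe1 lie head to head on chromosome 1, so that their windows are the same bases read from opposite strands, and both are shown for that reason.
Hspd1, chr1:55088039-55088096, minus strand, match 144 to 127 bases before the start site: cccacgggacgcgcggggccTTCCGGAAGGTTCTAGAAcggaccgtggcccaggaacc
Hspe1, chr1:55088039-55088096, plus strand, match 89 to 72 bases before the start site: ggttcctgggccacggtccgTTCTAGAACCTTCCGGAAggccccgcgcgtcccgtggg
Hsp90b1, chr10:86705513-86705571, minus strand, match 107 to 89 bases before the start site: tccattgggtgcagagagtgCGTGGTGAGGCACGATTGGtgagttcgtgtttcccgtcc
Hspa5, chr2:34772005-34772063, plus strand, match 65 to 47 bases before the start site: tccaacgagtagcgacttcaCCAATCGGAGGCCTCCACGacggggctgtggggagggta
Pdia6, chr12:17266471-17266529, plus strand, match 98 to 80 bases before the start site: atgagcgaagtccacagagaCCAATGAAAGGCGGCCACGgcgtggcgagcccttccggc
The 18 capitals of the chaperonin pair hold the element on both strands, with the matches overlapping. Hsp90b1 held another match 212 to 194 bases before its start. The Hsph1 match, not printed, lay after the start site, at 36 to 48 or 15 to 27 bases, depending on the listed start site.

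No chaperone or folding gene passed the test between genotypes. Of the 85 members, 57 exceeded the median intensity on 4 or more of the 8 arrays and were tested, and none of these passed through arrays of 1 genotype alone. With limma and Benjamini-Hochberg adjustment over all 4698 tested probes, 0 of the 57 had an adjusted p under 0.05, as was the case for 0% of all tested probes. At an unadjusted p under 0.05 there were 3 members, Hspg2, Hspb8 and Cct3, or 3 of 57 where 9.34% of all tested probes were called. All 3 were higher in the knockout, a direction called at 4.75% of tested probes. The genotypes did not overlap at 2 tested members, Hspg2 and Hspb8, where 4.60% of all tested probes showed no overlap. Over all 85 members the knockout mean was higher for 42 and lower for 43, with a median difference of -0.00 on the log2 scale, and over all 9232 probes 47.5% were higher with a median of -0.02. Of the 57 tested members, 53 differed by less than 0.5 log2 units. The median standard error of a tested member's difference was 0.20. The 28 untested members had means between 3.89 and 6.80, below the array median of 6.93, and differences from -0.62 to 0.24.

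**Figure D1:**
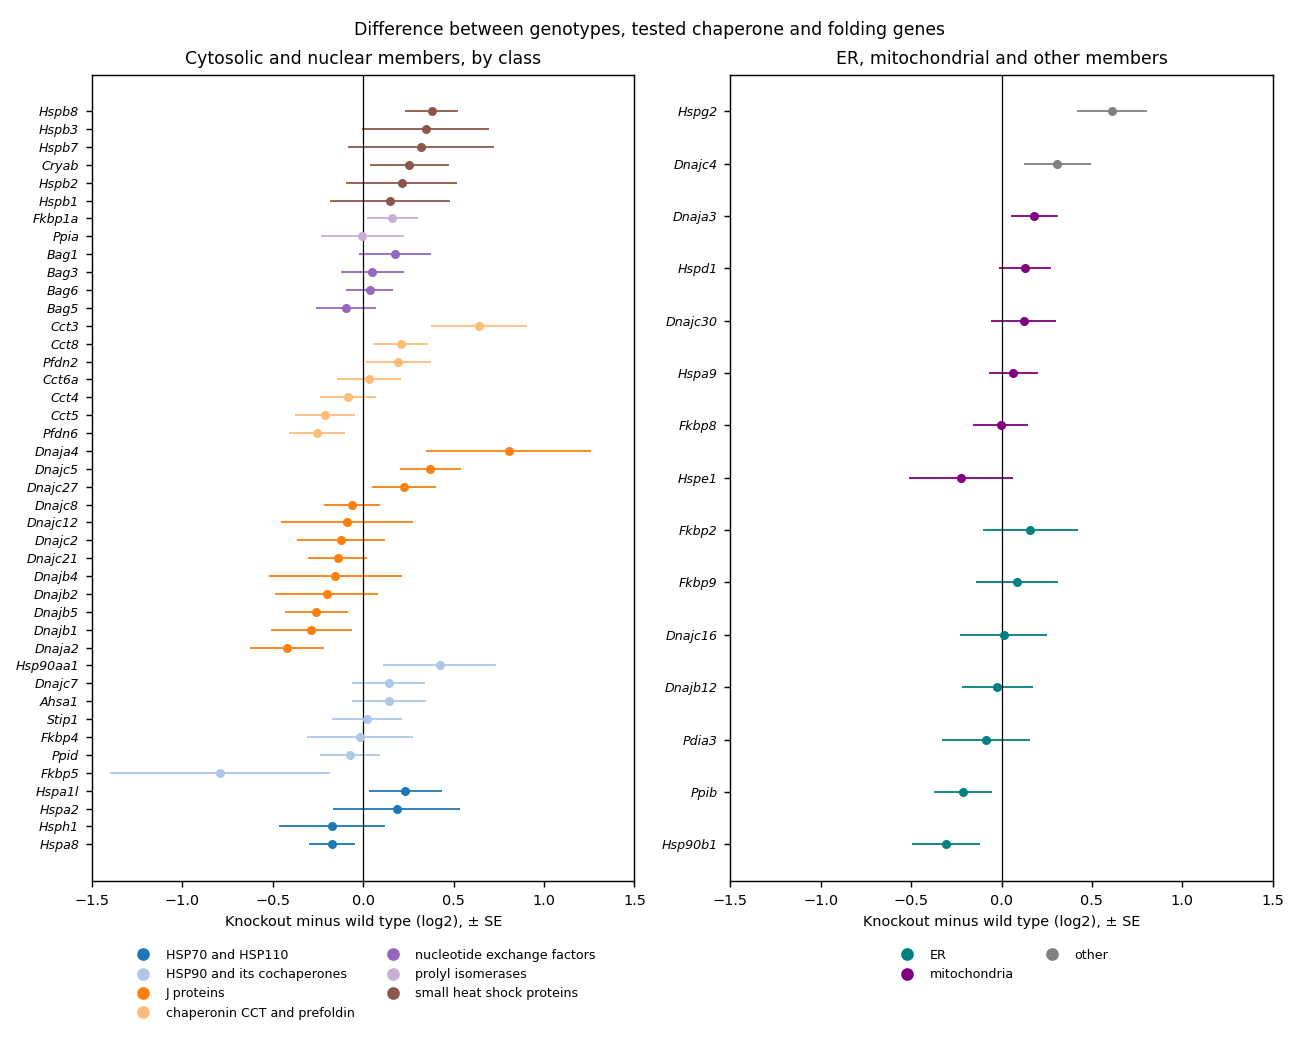
Difference between knockout and wild type (log2 intensity, horizontal axis, limma estimate ± SE, 4 arrays per genotype) for the 57 tested members, by class in the cytosol and by compartment elsewhere. Most estimates lie within 0.5 of 0, the small heat shock proteins all lie to the right, and Dnaja4 and Fkbp5 carry the widest errors among the largest differences.

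Small heat shock proteins were the class whose members all had a higher mean in the knockout. All 6 on the array were tested, and their differences ran from 0.15 (Hspb1) to 0.38 (Hspb8), with a median of 0.29 (6 of 6 higher). Hspb8, a partner of Bag3 in the removal of damaged muscle filaments, had log2 intensities of 13.65, 13.70, 13.55 and 13.74 in knockout replicates 1 to 4 and of 13.46, 13.31, 13.01 and 13.35 in wild-type replicates 1 to 4. The lowest knockout array lay above the highest wild-type array, a 1.30-fold difference (0.38, SE 0.15, unadjusted p = 0.0273, adjusted p = 0.499 by limma). Cryab, αB-crystallin, read 14.06, 14.04, 13.81 and 13.98 in the knockout and 13.93, 13.07, 13.80 and 14.08 in the wild type. The genotypes overlapped, and wild-type replicate 2 alone was low. Hspb1, the mouse HSP25, read 13.78, 13.99, 12.45 and 13.89 against 13.49, 13.72, 13.12 and 13.18. Knockout replicate 3 was the lowest of all arrays, and the other knockout arrays were the highest of all. Hspb7, a small heat shock protein of heart and muscle, showed the same low array, with 12.44, 12.57, 10.98 and 12.47 against 11.20, 12.61, 11.55 and 11.81.

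Hspb3, known from skeletal muscle, and Hspb2, which binds the myotonic dystrophy kinase, followed another order. Hspb3 read 8.88, 10.61, 10.03 and 9.51 against 9.74, 8.97, 9.25 and 9.70, and Hspb2 read 8.75, 9.35, 9.23 and 8.27 against 8.68, 7.99, 8.86 and 9.20. In both, knockout replicate 2 was the highest and the rest overlapped. The class mean, as log2 intensity minus the wild-type mean, was 0.22, 0.66, -0.04 and 0.26 in the knockout arrays and 0.04, -0.10, -0.11 and 0.17 in the wild type. Without knockout replicate 2 the median difference of the class was 0.12, with 5 of 6 higher. Cryab, Hspb1 and Hspb8 had means above 13, near the upper end of the values at 14.19. Whether differences are compressed at that level was not tested. Slow fibre markers had higher means as well: 5 of 7 were higher in the knockout, their summed intensity ran from 1938 to 2750 in the knockout and from 1578 to 2282 in the wild type, with the highest sum in knockout replicate 2. That sum was carried by the myosin light chains Myl2 and Myl3, at 10.28 and 9.11. Tnnc1, Tnnt1, Tnni1 and Atp2a2 were lower there than in any other knockout array. Myl2 and Myl3 were the 2 genes of the list with lower knockout means, with differences of -0.15 and -1.17. Atp2a2 differed by 1.09 (unadjusted p = 0.0141, adjusted p = 0.465 by limma). It was the 1 of 5 tested list genes at an unadjusted p under 0.05, where 9.34% of all tested probes were called. The list's median deviation from the wild-type mean was 0.31, 0.13, 0.34 and 0.43 in knockout replicates 1 to 4. Their part in the small heat shock protein values was not tested.

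**Figure D2:**
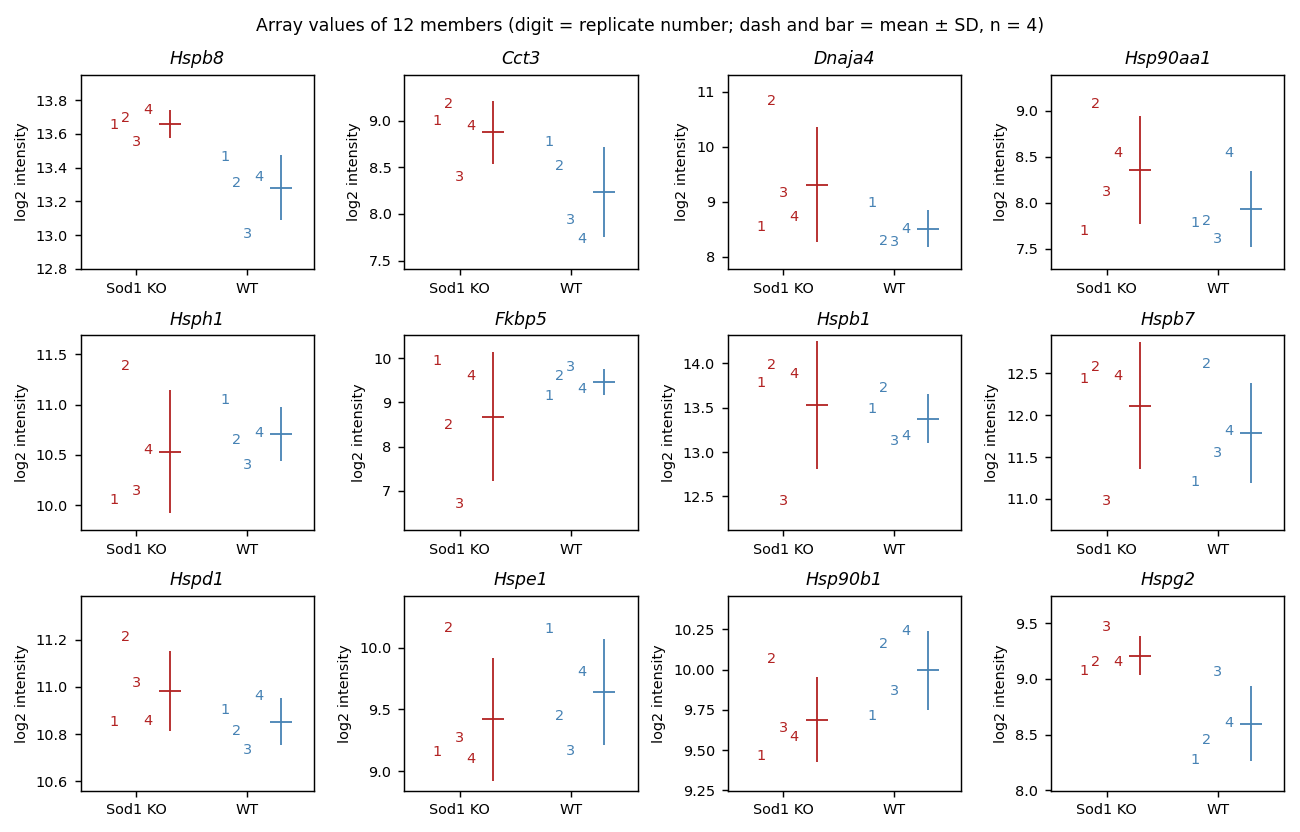
Log2 intensity (vertical axis, a separate scale for each gene) of 12 members in the 4 knockout and 4 wild-type arrays. Digits mark the replicate and the dash with its bar is the mean ± SD (n = 4). Hspb8 and Hspg2 separate the genotypes, knockout replicate 2 is high for Dnaja4, Hsp90aa1 and Hsph1, and knockout replicate 3 is low for Fkbp5, Hspb1 and Hspb7.

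HSP70, the central folding engine, and its relatives did not separate the genotypes, as far as they were measured. Hspa1a and Hspa1b, both listed as fixed anchors, were not among the members, and neither was the HSP90 gene Hsp90ab1. The values here thus say nothing of these genes. Hspa8, the constitutive cytosolic HSP70, read 13.45, 13.42, 13.64 and 13.59 in the knockout and 13.76, 13.70, 13.61 and 13.72 in the wild type, a difference of -0.17 (SE 0.13, adjusted p = 0.68). Its other 2 probes differed by -0.00 and -0.16. Hsph1, an HSP110 that resets HSP70, read 10.06, 11.39, 10.14 and 10.55 against 11.05, 10.65, 10.40 and 10.72, so that the highest and the lowest array were both knockouts. Hspa1l differed by 0.23 and the testis-rich Hspa2 by 0.18, each with overlap.

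Within the HSP90 group, Hsp90aa1, the inducible cytosolic HSP90, read 7.69, 9.07, 8.12 and 8.54 against 7.78, 7.81, 7.60 and 8.54, a difference of 0.42 (SE 0.31, adjusted p = 0.678). Its cochaperones Stip1, which joins HSP70 to HSP90, Ahsa1, which speeds the ATPase of HSP90, Fkbp4, Ppid and Dnajc7 differed by -0.07 to 0.14. Fkbp5, a cochaperone of steroid receptors and a known glucocorticoid target, had the largest negative difference of all members. It read 9.94, 8.48, 6.69 and 9.61 in the knockout and 9.15, 9.61, 9.81 and 9.31 in the wild type. Knockout replicate 3 was 1.79 below the next lowest array, 1 knockout array was above all wild-type arrays, and the difference of -0.79 had an SE of 0.61 (adjusted p = 0.687). Its range over the 8 arrays, 3.24, was the widest of the tested members, whose median range was 0.84 against 0.91 for all tested probes.

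J proteins of the cytosol, which choose the substrates of HSP70, were lower in the knockout for 12 of 17 members, with a median of -0.14. Dnaja4 went the other way: 8.53, 10.83, 9.16 and 8.72 against 8.98, 8.28, 8.26 and 8.51. Its difference of 0.80 (SE 0.45, adjusted p = 0.597) rested on knockout replicate 2, which was 1.67 above the next array. Dnaja2, a general partner of HSP70, read 9.31, 9.47, 9.00 and 8.64 against 9.58, 9.26, 9.58 and 9.70, a difference of -0.42 (SE 0.20, adjusted p = 0.548), and its other probe, below the filter, differed by -0.52. Dnajc5, the cysteine string protein of synaptic vesicles, read 9.60, 9.46, 9.27 and 9.65 against 8.81, 9.39, 9.04 and 9.25, a difference of 0.37 (SE 0.17, adjusted p = 0.53). In both genes the groups overlapped by a few arrays. Dnajb1, an inducible partner of HSP70, read 7.40, 7.81, 8.07 and 7.69 against 8.09, 7.56, 7.98 and 8.49, a difference of -0.29. Dnajb5, of the same J protein subfamily, read 10.27, 10.72, 10.20 and 10.47 against 10.75, 10.37, 10.71 and 10.86, a difference of -0.26. In both genes knockout and wild-type arrays overlapped, with wild-type replicate 4 the highest. For Dnajc21, a J protein of ribosome assembly, the 2 tested probes differed by -0.14 and -0.46, the weaker signal showing an unadjusted p of 0.0247 and an adjusted p of 0.494.

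The chaperonin CCT, a ring of 8 different subunits in which actin and tubulin fold, did not move as a unit. Cct3 read 9.00, 9.18, 8.39 and 8.94 against 8.77, 8.51, 7.93 and 7.73, a 1.56-fold difference (0.64, SE 0.26, unadjusted p = 0.0369, adjusted p = 0.518), and knockout replicate 3 lay inside the wild-type range. Cct8, another subunit of the ring, read 10.55, 10.97, 10.63 and 10.63 against 10.47, 10.69, 10.42 and 10.37, a difference of 0.21 that rose above the wild-type range in knockout replicate 2 alone. Cct6a differed by 0.03, Cct4 by -0.08 and Cct5 by -0.21. Prefoldin hands new chains to CCT; its subunit Pfdn2 differed by 0.20. Pfdn6 read 9.59, 9.84, 9.96 and 9.74 against 9.94, 9.82, 10.22 and 10.16, a difference of -0.25, with overlap. Among the BAG proteins, which free HSP70 of its nucleotide, Bag3, the partner of Hspb8, differed by 0.05 and Bag1 by 0.18. Bag6 was the steadiest tested member, with a range of 0.27 over all arrays. The prolyl isomerases Ppia, cyclophilin A, and Fkbp1a, which stabilises the calcium release channel, differed by -0.00 and 0.16.

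ER chaperones were lower in the knockout for 9 of 16 members, with a median difference of -0.03, and 7 of the 16 were tested. That direction rested on single arrays: the median was 0.03 without knockout replicate 3, with 10 of 16 higher, and 0.02 without wild-type replicate 4. Hsp90b1, the HSP90 of the ER, read 9.46, 10.07, 9.64 and 9.58 against 9.71, 10.16, 9.87 and 10.24. Knockout replicate 2 overlapped the wild type, the other knockout arrays lay below all wild-type arrays, and the difference was -0.31 (SE 0.19, adjusted p = 0.628). Pdia3, the disulfide isomerase that works on glycoproteins, read 8.74, 9.19, 8.12 and 8.70 against 8.61, 9.12, 8.47 and 8.89, with full overlap. Ppib, cyclophilin B, which acts on collagen, differed by -0.21, and Fkbp2 by 0.16. Fkbp9, a prolyl isomerase of the ER, read 9.38, 9.24, 9.49 and 9.26 against 9.40, 8.57, 9.44 and 9.63, where wild-type replicate 2 alone was low. Hspa5, known as BiP, had a dim probe that was not tested, at 6.24, 6.80, 5.81 and 5.85 against 6.29, 6.64, 6.08 and 6.94. Calr and Canx, listed as anchors, were not among the members, and of their stems only the untested Calr3 was. The disulfide isomerases Pdia4 and Pdia6 were also below the filter. Pdia4 read 5.10, 5.85, 5.90 and 6.03 against 5.12, 5.63, 5.26 and 6.10 and Pdia6 read 5.03, 4.80, 3.91 and 4.59 against 4.47, 4.60, 4.84 and 5.04. The genotypes overlapped at both genes, and knockout replicate 3 was the lowest array for Pdia6.

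Of the 3 compartments, the mitochondrial mean over all 8 members varied least over the knockout arrays, from -0.08 to -0.01 relative to the wild-type mean. Over the 6 tested members it was -0.02, 0.16, 0.08 and -0.04 in knockout replicates 1 to 4. The dim, untested Dnajc11 was at -0.89 in knockout replicate 2 on this scale. Over the wild-type arrays the mean of all members had an SD of 0.14, against 0.09 for the cytosol and 0.18 for the ER. Hspa9, the matrix HSP70, read 10.96, 11.19, 10.96 and 11.07 against 11.12, 11.04, 10.93 and 10.83, a difference of 0.07. Dnaja3, its J protein, read 11.55, 11.74, 11.78 and 11.63 against 11.50, 11.49, 11.40 and 11.57, so that 1 knockout array fell below 1 wild-type array (0.18, SE 0.13, adjusted p = 0.666). Its other probe, below the filter, differed by -0.17, and with the probes averaged the difference was 0.0082. Hspd1, HSP60, read 10.85, 11.21, 11.02 and 10.86 against 10.90, 10.81, 10.73 and 10.96. Its weaker probe differed by 0.85 (SE 0.30, unadjusted p = 0.0173, adjusted p = 0.472), while the brightest differed by 0.13, so the 2 probes disagreed in size. Hspe1, HSP10, the lid of the HSP60 barrel, read 9.15, 10.16, 9.27 and 9.10 against 10.15, 9.45, 9.16 and 9.80, a difference of -0.22. For both genes of the shared promoter printed above, knockout replicate 2 was the highest array, for Hspe1 by under 0.01.

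Which array was highest differed between compartments. Of the 56 cytosolic members, 20 (35.7%) had their highest value in knockout replicate 2, where 11.5% of all probes did. The largest leads over the next array among these 20 were those of Dnaja4, Hspb3, Hsp90aa1, Ahsa1, Hspa1l, Hsph1, Cct8 and Ppia. They ran from 0.23 (Ppia) to 1.67 (Dnaja4). The others led by less, such as Dnajb4 by 0.06, Fkbp4 by 0.05 and the untested Dnajc17 by 0.004. Knockout replicate 2 was also the lowest array for 5 of the 56, among them Hspa8 and Bag1, where 12.7% of all probes were lowest. Of the 16 ER members, 9 (56.2%) were highest in wild-type replicate 4, where 11.5% of all probes were. They were Hspa5, Hsp90b1, Pdia4, Pdia6, Fkbp2, Fkbp7, Fkbp9, Ppib and Ppic. Of these, Hspa5, Pdia4, Pdia6, Fkbp7 and Ppic were below the filter, and Pdia6 and Ppic led the next array by 0.01 and 0.03. Among the 7 tested ER members, 4 (57.1%) were highest there, where 12.2% of all tested probes were. Of the 8 mitochondrial members, 3 were highest in knockout replicate 2, namely Hspa9, Hspd1 and Hspe1. The cytosolic mean was -0.02, 0.22, -0.10 and -0.06 in the knockout arrays and 0.11, -0.01, -0.11 and 0.02 in the wild type. The ER mean was -0.11, 0.15, -0.16 and -0.05 against -0.10, -0.06, -0.11 and 0.26. The mitochondrial mean was -0.08, -0.01, -0.04 and -0.05 against 0.19, 0.02, -0.12 and -0.09. In each compartment the range of the knockout arrays overlapped that of the wild type.

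**Figure D3:**
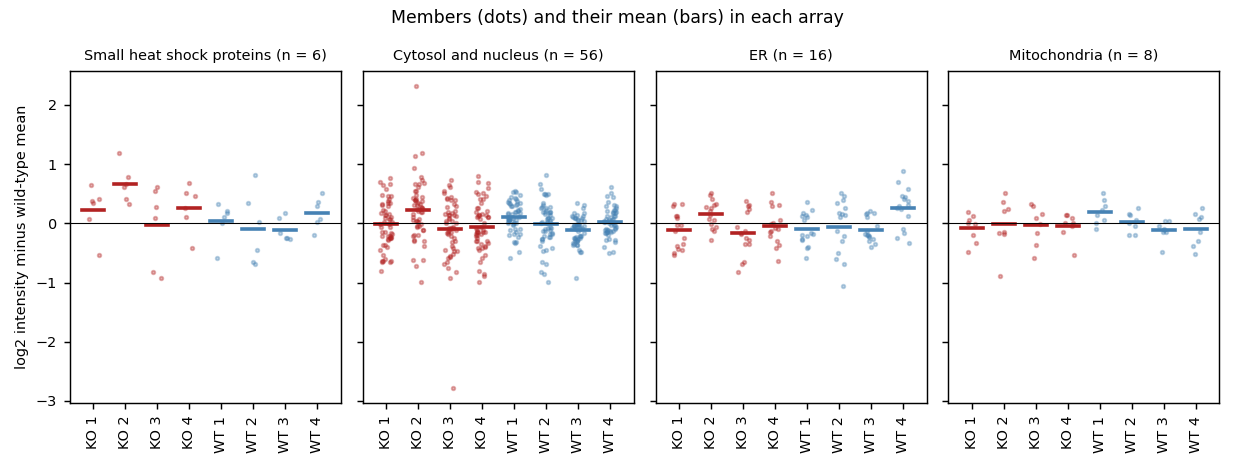
Log2 intensity minus the wild-type mean (vertical axis) in each of the 8 arrays, for small heat shock proteins, cytosolic, ER and mitochondrial members. Dots are genes and bars are their mean, with knockout arrays in red and wild-type arrays in blue. The cytosolic bar is highest in knockout replicate 2, at 0.22, and the ER bar in wild-type replicate 4, at 0.26.

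The cytosolic median difference was 0.02, and -0.11 without knockout replicate 2, with 22 members then higher and 34 lower. Of the genes with a heat shock element, Hspd1, Hspe1 and Hsph1 peaked in knockout replicate 2 and the dim Dnajb6 in knockout replicate 1. Hspd1 and Hspe1 share the same element, and Hspe1 peaked there by under 0.01. Among the 20 cytosolic members highest in knockout replicate 2, Hsph1 alone had a match, which lay after its start site. Some members had no promoter to search. All 3 genes with an ER stress element peaked in wild-type replicate 4, with gaps to the next array of 0.14 for Hspa5, 0.08 for Hsp90b1 and 0.01 for Pdia6. Immediate early genes, a sign of recent stimulation, were measured at 9 of 14 listed genes. Their summed intensity was 4829 in knockout replicate 2, against 2145 to 2916 in the other knockout arrays and 3014 to 3708 in the wild type. That array was the highest for 1 of the 9, the untested Atf3, at 10.46 against 6.96 or less elsewhere, and Jun was lowest there. The list's mean deviation was 0.33 in knockout replicate 2 and 0.35 in wild-type replicate 4. Macrophage markers, 6 of 10 measured and none past the filter, summed to 445 in knockout replicate 2, 443 in knockout replicate 3 and 435 in wild-type replicate 4, against 140 to 310 in the other 5 arrays. Red cell markers, 2 of 3 measured, had their highest sum in wild-type replicate 4, at 12248, against 6117 to 10343 elsewhere. The part of these lists in the array patterns was not tested.

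**Figure D4:**
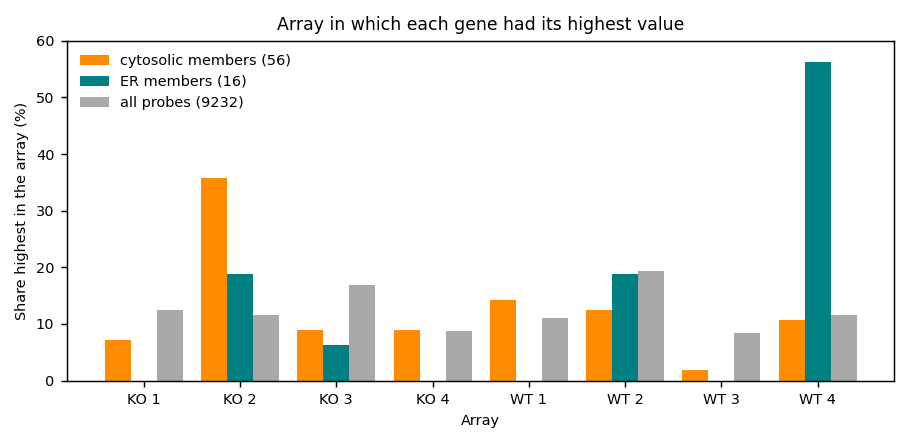
Share of genes (percent, vertical axis) that had their highest value in each of the 8 arrays, for the 56 cytosolic members, the 16 ER members and all 9232 probes. Cytosolic members gather in knockout replicate 2 (35.7%) and ER members in wild-type replicate 4 (56.2%), where all probes stand at 11.5% each.

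Folding genes outside the name rule were set beside the members. Of 15 measured cytosolic partners, such as Tcp1, a CCT subunit, and Stub1, the ubiquitin ligase of HSP70 clients, 9 were lower, with a median of -0.08. At an unadjusted p under 0.05, 1 of the 12 tested was lower and 0 higher, where 4.60% of all tested probes were lower. It was Ptges3 (p23, a cochaperone of HSP90), which differed by -0.56. Their mean in knockout replicate 2 was 0.02, and 3 of 15 were highest there. Of 19 ER genes, 14 were lower, with a median of -0.14, and of the 16 tested, 2 were lower and 0 higher at an unadjusted p under 0.05, against the same 4.60% of all tested probes. These were Uggt1, the sensor that returns misfolded glycoproteins to the calnexin cycle, at 7.67 against 8.34 (-0.67), and Ganab, a subunit of the glucosidase that trims their glycans, at 6.70 against 7.14 (-0.45). The mean of the list was lowest in knockout replicate 3, at -0.41, highest in knockout replicate 2, at 0.22, and was 0.01 in wild-type replicate 4. Wild-type replicate 4 was the highest array for 2 of the 19 (10.5%) and knockout replicate 2 for 6 (31.6%), where 11.5% of all probes were in each. Wild-type replicate 2 was the highest for 7, where 19.4% of all probes were. The peak of the ER members in wild-type replicate 4 was thus not seen in this list. Of 12 mitochondrial partners, 7 were lower, with a median of -0.06, and Timm44, which tethers Hspa9 to the import pore, was the 1 of 9 tested with an unadjusted p under 0.05, where 9.34% of all tested probes had one, at 8.59 against 8.16 (0.43). None of these genes passed after adjustment over all probes.

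The smallest p among the members belonged to a gene that is no chaperone. Hspg2 encodes perlecan, the heparan sulfate proteoglycan of basement membranes, and met the rule by its symbol. It read 9.07, 9.15, 9.46 and 9.15 in the knockout and 8.27, 8.45, 9.06 and 8.61 in the wild type, without overlap. The difference was 1.53-fold (0.61, SE 0.19, unadjusted p = 0.0108, adjusted p = 0.465), and its other probe differed by 0.53 (adjusted p = 0.53). Of 7 listed fibroblast markers the 2 measured, Dcn and Pdgfra, both had a lower mean in the knockout, with summed intensities of 4404 to 5377 against 4792 to 6596. Most of that sum was Dcn, whose mean was 12.3 against 7.4 for Pdgfra. The part of fibroblasts in the Hspg2 value was not tested. Dnajc4, a J protein placed in no compartment, read 7.65, 7.34, 7.99 and 7.65 against 7.33, 7.08, 7.34 and 7.65, a difference of 0.31 with overlap. Hspa12b, an HSP70 relative of endothelial cells, was below the filter at 5.12, 6.50, 6.00 and 6.19 against 6.24, 6.38, 6.67 and 7.00. All 6 measured endothelial markers of 7 listed had a lower mean in the knockout, with a median of -0.39 and summed intensities of 705 to 908 against 834 to 1094, and their part in the Hspa12b value was not tested. In RNA of whole muscle, fewer cells of a type and less RNA per cell cannot be told apart.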

How the data were processed

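Per the labels' protocols, muscle RNA was amplified to biotinylated cRNA and hybridised to Illumina arrays. The values used are the log2 intensities the authors deposited; that the base is 2 was judged from their range of 3.21 to 14.19. All 8 columns hold the same sorted values, which is what quantile normalization leaves in deposited log2 data, and a shift of all transcripts cannot be seen. Background correction is not given in the sources used here. A table of 8 further columns was not used, since their names match no sample. Probe names came from the platform annotation, in which 8403 of 9232 probes have 1 gene, 3 several and 826 none. Each gene was read from its probe of highest mean. Probes above the array median in at least 4 of 8 arrays were tested (4698) with limma 3.58.1 in R 4.3.3 (a term for genotype, eBayes, two-sided) and Benjamini-Hochberg adjustment over all of them; the fit was tested on simulated data. Differences are knockout minus wild type, and SD is over 4 arrays. Members and lists were chosen with earlier results of these data known, compartments were assigned by hand, and motifs were searched after the array values were seen. Per-array values are given for the 12 tested members of smallest p, the 3 brightest of each compartment and fixed anchors; other members may be named. Hspb2, Hspb3, Hspb7, Fkbp5 and Hspa12b were given array by array after their values were seen. Same-numbered samples deviated with correlations of -0.28, -0.15, 0.24 and -0.34 and were not treated as pairs. Alternatives covered the filter, moderation, array weights, a replicate block, probe averaging, cyclic loess and each array left out.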

Additional observations from a re-analysis of the deposited data

Results flagged for a closer look

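In 3 of 58 groups of 4 values looked at, 1 array stood apart from the other 3 by a gap that exceeded Dixon's 95% critical share of the group's range; chance gives about 1 in 20 groups. Hspb1 in knockout replicate 3 was 12.45, with the other knockouts at 13.78 to 13.99. Hspe1 in knockout replicate 2 was 10.16, with the others at 9.10 to 9.27. The mean of the ER members in wild-type replicate 4 was 0.26 above the wild-type mean, with the other wild-type arrays from -0.11 to -0.06.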

How the results depend on the processing

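No member passed after adjustment under any of the 15 alternatives run (0 in each); over all probes, 36 passed without knockout replicate 2, 4 with array weights and 0 in the others. The 3 members at an unadjusted p under 0.05 became 7 with array weights (Cct3, Dnaja2, Dnajb5, Dnajc5, Hspb8, Hspg2 and Pfdn6). The share of all probes also rose there, from 9.34% to 13.9%. The count was 4 in other alternatives, given with the share of all probes tested there. The stricter filter added Dnajc5 (9.25%), moderation with trend added Hspa8, lower in the knockout (8.96%), and probe averaging added Hspd1 (8.97%). When each array was left out the count of the 57 ran from 1 to 6, given here with the share of all tested probes. Without knockout replicates 1, 2, 3 and 4 it was 2 (7.24%), 4 (14.3%), 6 (5.43%) and 1 (7.60%). Without wild-type replicates 1, 2, 3 and 4 it was 3 (9.03%), 5 (9.11%), 1 (7.19%) and 2 (8.11%). Hspg2 was called in each alternative, and Hspb8 and Cct3 were lost without knockout replicates 1, 2 or 4 or wild-type replicate 3, and Cct3 also without wild-type replicate 4. With a replicate block the count was 3, and the block changed no other call. The median differences with an array left out ran from -0.11 to 0.046 for cytosolic members, from -0.14 to 0.03 for ER members, and from 0.12 to 0.38 for small heat shock proteins, the latter an alternative added after the data were seen. Of 26 named members 4 turned sign: Fkbp9 with array weights (-0.061), and with arrays left out Fkbp9 (-0.15 to 0.21), Hspb1 (-0.0046 to 0.51), Pdia3 (-0.25 to 0.10) and the untested Pdia6 (-0.31 to 0.067). The number of arrays, 4 per genotype, limits the precision.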

Other observations

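Fkbp5 is a glucocorticoid target, and 14 other genes known to respond to glucocorticoids or to fasting in muscle were looked up after its values were seen. Their mean log2 intensity minus the wild-type mean was 0.90, -1.22, -1.08 and 0.39 in knockout replicates 1 to 4 and -0.74, 0.52, 0.35 and -0.12 in wild-type replicates 1 to 4. Knockout replicates 2 and 3 and wild-type replicate 1 were thus the low arrays, across genotypes. Not every gene followed that order: Sgk1 was not low in knockout replicate 3, nor Mt1 in knockout replicate 2. Pdk4, a kinase that spares glucose, read 14.16, 11.27, 12.17 and 13.64 in the knockout and 12.96, 14.04, 14.11 and 13.57 in the wild type. Fkbp5 was low in knockout replicates 2 and 3 as well, and at 9.15 in wild-type replicate 1 it was the lowest wild-type array. All 14 were tested, and none had an unadjusted p under 0.05 between genotypes by limma, where 9.34% of all tested probes had one. The 14 were chosen after the values of Fkbp5 were seen, and what they share with Fkbp5 was not tested.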
